A study of Mus musculus with 6 samples.

Results

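The 30 genes described here encode enzymes of cholesterol synthesis and the proteins that sense, move, store and clear sterols. They were chosen by symbol, from 23282 rows in a count table of mouse forebrain, and each symbol was found in exactly 1 row. The 6 libraries come from male wild-type C57BL/6J mice of 8 to 10 weeks, given either a normal chow diet (NCD, 3 libraries) or a high-fat diet with 60 kcal% fat (HFD, 3 libraries) for 10 days. RNA was taken from forebrain hemispheres without olfactory bulbs and cerebellum, and the QuantSeq 3′ kit, which starts from the poly(A) tail, gave reads near the 3′ ends of transcripts. Whether each library is a separate mouse is not stated, so the p-values measure the spread between libraries.

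The brain makes nearly all of its own cholesterol, since lipoproteins of the blood do not cross the blood-brain barrier, and myelin holds most of it. Synthesis runs from acetyl-CoA through mevalonate to squalene, is closed to lanosterol, and ends with a series of trimming steps. When membranes of the endoplasmic reticulum are poor in sterol, SCAP carries the SREBP transcription factors to the Golgi, where they are cut and released to switch on these enzymes, while Insig proteins hold them back when sterol is plentiful. The liver X receptors respond to oxysterols and drive efflux, and neurons dispose of cholesterol by hydroxylation through Cyp46a1.

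The 6 libraries held between 6842785 and 9689372 counts. Levels are given as CPM, the counts of a gene scaled to a common library size, after TMM correction for differences in composition between libraries, and 3 counts, taken as the floor, correspond to between 0.316 and 0.432 CPM. This floor covers counting error only. For the tissue label, 10 of 10 neuron markers, 11 of 11 astrocyte markers and 12 of 12 oligodendrocyte markers had counts in every library. HFD replicate 3 stood apart most, and NCD replicate 3 did so to a lesser degree. The difference between 2 libraries was measured as the chi-square of their counts per degree of freedom. It ran from 14.1 to 18.1 for pairs with HFD replicate 3. For pairs of NCD replicate 3 with the remaining libraries it ran from 8.13 to 12.7. Among the remaining libraries it ran from 3.19 to 4.12. The summed level of 8 pituitary markers was 1277 CPM in HFD replicate 3 and between 4.75 and 13.6 CPM in the other libraries, and 4 of the 8, namely Prl, Cga, Fshb and Pou1f1, had a count of 0 in at least 1 library. HFD replicate 3 also had the highest share of counts on the ribosomal RNA precursor Rn45s, at 8.75%, against 5.55% in HFD replicate 1. Omitting HFD replicate 3 or another library moved the fold change of some of the 30 genes by more than 1.5 times. For these, the value without that library is given, or the lowest and highest values with 1 library omitted. They stand beside the result or under the processing alternatives.

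Promoter sequences are shown for 3 of the genes, because SREBP proteins act through sterol regulatory elements next to CCAAT boxes in the promoters of the synthesis genes. The windows come from RefSeq on GRCm38.p6 and run from 250 bases before to 50 bases after a gene's start. Of the 30 genes, 25 had an entry, with 34 windows in all, while Fdps, Fdft1, Sqle, Stard4 and Npc1 had no entry. The sterol regulatory element was searched as TCACNCCAC and the CCAAT box as CCAAT, each on both strands, and no match of one shared bases with a match of the other in the stretches printed. The element was found in 1 of the 34 windows, that of Hmgcs1, and in 1.24% of 32851 windows of 300 bases over all genes. CCAAT was found in 14 of 18 windows of synthesis enzymes (77.8%), in 8 of 16 windows of the other members (50%) and in 37.4% of all windows. These are shares of windows and not of genes. Among the enzymes Dhcr7 had 3 windows and Pmvk 2, while Fdps, Fdft1 and Sqle had none. A raised share was not particular to CCAAT. The GC box GGGCGG was found in 83.3% of the windows of synthesis enzymes, 68.8% of those of the other members and 35.7% of all windows. A match is a description of letters and does not show binding. Hmgcs1 is printed as the window with the element, Mvk as the mevalonate enzyme with the lowest fold change and Cyp46a1 as the clearance enzyme, each 5′ to 3′ and upstream of the start only, with the element and the CCAAT boxes in capitals. The Hmgcs1 stretch is chr13:119690101-119690350 on the plus strand, with its element 137 bases before the start and 3 CCAAT boxes. For Mvk it is chr5:114444061-114444268 on the plus strand, with 5 CCAAT boxes, and for Cyp46a1 it is chr12:108334066-108334315 on the plus strand, with 1 CCAAT box.
Hmgcs1: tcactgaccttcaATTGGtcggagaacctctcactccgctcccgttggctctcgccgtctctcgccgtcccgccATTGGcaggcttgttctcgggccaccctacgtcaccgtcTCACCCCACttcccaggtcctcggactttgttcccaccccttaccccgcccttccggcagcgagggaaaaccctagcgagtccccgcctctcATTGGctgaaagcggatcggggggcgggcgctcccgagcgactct
Mvk: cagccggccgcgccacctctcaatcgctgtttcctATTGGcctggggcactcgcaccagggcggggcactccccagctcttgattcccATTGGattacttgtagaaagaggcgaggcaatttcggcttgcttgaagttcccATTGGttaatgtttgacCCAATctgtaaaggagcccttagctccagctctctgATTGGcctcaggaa
Cyp46a1: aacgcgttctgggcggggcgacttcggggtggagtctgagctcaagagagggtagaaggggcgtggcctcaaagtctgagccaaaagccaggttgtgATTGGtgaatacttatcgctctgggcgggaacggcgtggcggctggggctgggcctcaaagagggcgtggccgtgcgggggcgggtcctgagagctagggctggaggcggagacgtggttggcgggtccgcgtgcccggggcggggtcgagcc

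All 30 genes had enough counts for the quasi-likelihood (QL) test of edgeR, which gave each an unadjusted p, a Benjamini-Hochberg (BH) adjusted p over all genes and a standard error (SE), and 0 of them had a BH-adjusted p under 0.05. The same held for 0 of all 13771 genes tested, a background of 0%, and for 0 of the 30 genes with DESeq2 or with limma after quantile normalization. At an unadjusted p under 0.05, 2 of the 30 genes (6.67%) were lower on the HFD, namely Srebf1 and Cyp46a1, and 0 were higher. Over all genes tested, 3.68% passed this threshold, 1.98% lower and 1.71% higher. With DESeq2 0 of the 30 genes were lower at an unadjusted p under 0.05, and with limma after quantile normalization 1 was, which was Dhcr7 and neither of the 2 genes above.

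The estimates leaned to one side. On the log2 scale 24 of the 30 fold changes (80%) were under 0, against 50.6% of all genes tested, and the median was -0.12, against a median of -0.0025 over all genes. The number under 0 was 24 with each other scaling and between 22 and 25 with a library left out, and the median ran from -0.14 to -0.052 with a library left out. Among the 18 synthesis enzymes 15 (83.3%) were under 0, with a median of -0.13. Summed over the 30 genes, the level was 1524, 1513 and 1628 CPM in NCD replicates 1, 2 and 3 and 1386, 1464 and 1461 CPM in HFD replicates 1, 2 and 3. Each HFD library was thus below each NCD library in this sum, and the mean of the HFD libraries was 0.924 of that of the NCD libraries. Abundant genes weigh most in it, with Hmgcs1 at a mean of 356 of 1555 CPM on the NCD. For the 18 synthesis enzymes the sums overlapped, at 1009, 1036 and 1076 CPM on the NCD and 886, 972 and 1021 CPM on the HFD. By role, the diets were apart only in the sums from squalene to lanosterol and from lanosterol to cholesterol. The genes share libraries and control, so these counts are a description of the list and carry no p.

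**Figure D1:**
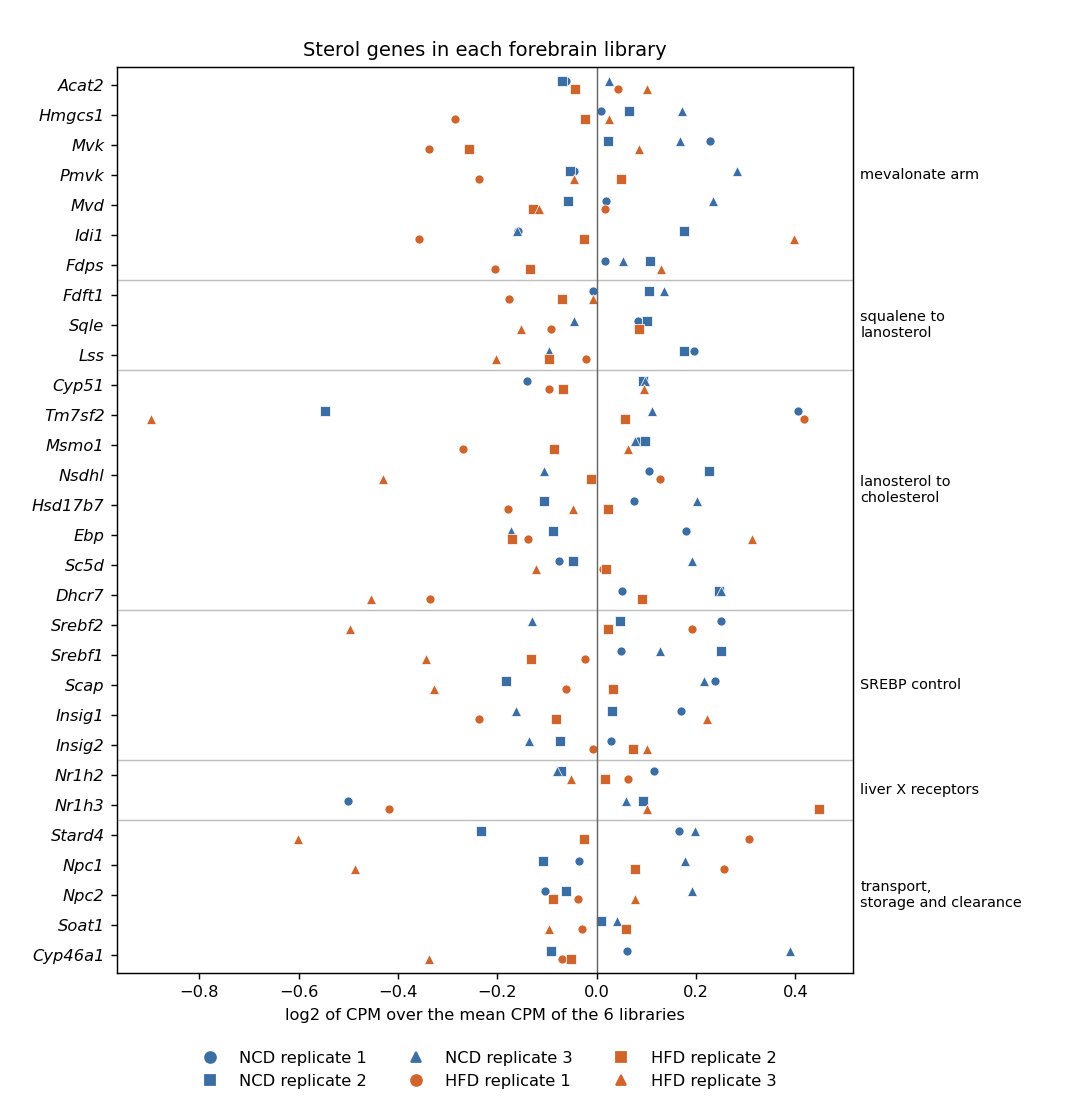
Level of each of the 30 genes in each library, as the log2 of its CPM over its mean CPM in the 6 libraries, grouped by role (blue, NCD; orange, HFD; the marker shape gives the replicate). The diets overlapped for all but 3 genes, and HFD replicate 1 was the lowest library for 8 of the 18 synthesis enzymes.

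The size of the differences was bounded by the data. The 95% interval of the log2 fold change lay within 2-fold in both directions for 29 of the 30 genes, the exception being Nr1h3 with 10 to 24 counts a library. It lay within 1.5-fold for 25 of them, and Mvk, Tm7sf2, Dhcr7, Stard4 and Nr1h3 had wider intervals. In 3 genes (10%), namely Fdft1, Msmo1 and Srebf1, the 3 HFD libraries were all below the 3 NCD libraries, against 4.49% of all genes tested (8.81% in either direction). With upper-quartile scaling this held for 1 of the 30 genes. No gene of the 30 had all HFD libraries above the NCD libraries, against 4.31% of all genes.

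**Figure D2:**
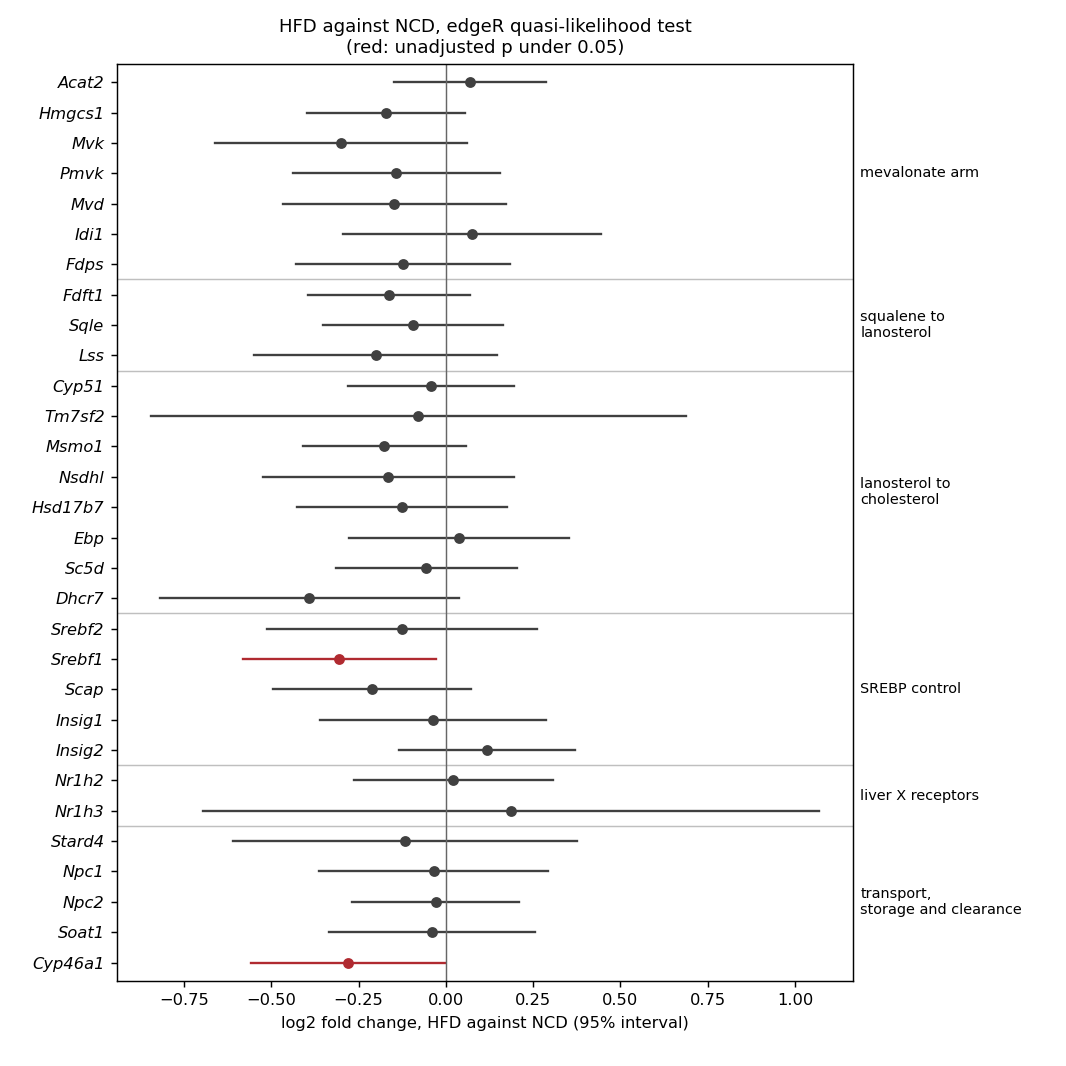
Log2 fold change of each gene, HFD against NCD, with its 95% interval by edgeR QL on 3 libraries a diet. The points of Srebf1 and Cyp46a1, in red, had an unadjusted p under 0.05, and 24 of the 30 points are left of 0.

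The mevalonate arm makes the isoprenoid units of sterols from acetyl-CoA, and 5 of its 7 genes had a fold change under 0 (median log2 fold change -0.14). Mvk, the mevalonate kinase, had 17.9, 15.5 and 17.2 CPM in NCD replicates 1, 2 and 3 and 12.1, 12.8 and 16.2 CPM in HFD replicates 1, 2 and 3. HFD replicates 1 and 2 lay below all NCD libraries, and HFD replicate 3 lay among them. Its log2 fold change was -0.30 (SE 0.17, unadjusted p = 0.0958, BH-adjusted p = 0.979 by edgeR QL), and with 1 library omitted it lay between -0.44 without HFD replicate 3 (unadjusted p = 0.0208, edgeR QL) and -0.22 without HFD replicate 1 (unadjusted p = 0.259, edgeR QL).

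Hmgcs1, the synthase that condenses acetyl-CoA units to HMG-CoA (chromosome 13, bases 119690379 to 119708260), had 338, 352 and 378 CPM on the NCD and 276, 331 and 342 CPM on the HFD. Of the HFD libraries, only replicate 3 reached the lowest NCD library. The means were 356 ± 20.5 CPM (SD, n = 3) and 316 ± 35.4 CPM (SD, n = 3), with a log2 fold change of -0.17 (SE 0.11, BH-adjusted p = 0.979 by edgeR QL) and a 95% interval from -0.40 to 0.06. Without HFD replicate 3 the value was -0.23 (unadjusted p = 0.0274, edgeR QL), and without HFD replicate 1, the lowest of the 6 libraries, it was -0.08 (unadjusted p = 0.492, edgeR QL).

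Pmvk and Mvd, the next enzymes after Mvk, had log2 fold changes of -0.14 and -0.15, and Fdps, the farnesyl diphosphate synthase, one of -0.12. Without NCD replicate 3, the highest library of both, Pmvk stood at -0.021 and Mvd at -0.057, and Fdps lay between -0.23 without HFD replicate 3 and -0.059 without HFD replicate 1. Fdps counts are uncertain, since its last 500 bases match 6 other annotated genes or pseudogenes over at least 75 bases at 95% identity or more, and reads with several alignments were counted. The 2 genes above 0 were Acat2, an acetyl-CoA acetyltransferase, at 0.07, and Idi1, the isopentenyl diphosphate isomerase, at 0.08. Both also share 3′ sequence with other genes, Acat2 with its paralog Acat3 and Idi1 with 2 predicted genes. Idi1 ranged from 21.6 CPM in HFD replicate 1 to 36.4 CPM in HFD replicate 3, so the HFD libraries spanned the whole range of the NCD libraries.

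From farnesyl diphosphate, Fdft1 makes squalene, Sqle adds the epoxide and Lss closes the rings to lanosterol. All 3 genes had a fold change under 0, and their summed level was 129, 135 and 129 CPM in the NCD libraries and 114, 123 and 118 CPM in the HFD libraries, without overlap. Lss had the lowest log2 fold change of the 3, at -0.20 (SE 0.16, BH-adjusted p = 0.979 by edgeR QL). It had 17.4, 17.2 and 14.2 CPM on the NCD and 15, 14.2 and 13.2 CPM on the HFD, and NCD replicate 3 lay among the HFD libraries. Fdft1 (chromosome 14, bases 63145150 to 63179578) had 65.8, 71.1 and 72.6 CPM on the NCD and 58.4, 62.9 and 65.7 CPM on the HFD. The highest HFD library and the lowest NCD library of Fdft1 were thus nearly level, and the log2 fold change was -0.16 (SE 0.11). The 3′ exon of Fdft1 overlaps that of Ctsb, the gene of the protease cathepsin B, on the other strand. Whether the counting used strand is not stated, and Ctsb itself had a log2 fold change of -0.02 and between 265 and 300 CPM. Sqle, at -0.09, had overlapping libraries.

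Of the 8 enzymes between lanosterol and cholesterol, 7 had a fold change under 0 (median log2 fold change -0.10). Dhcr7, which reduces 7-dehydrocholesterol to cholesterol in the last step of one branch (chromosome 7, bases 143823145 to 143848410), had the lowest fold change of the 30 genes. Its levels were 10.7, 12.3 and 12.3 CPM in NCD replicates 1, 2 and 3 and 8.21, 11 and 7.56 CPM in HFD replicates 1, 2 and 3. HFD replicate 2 lay within the NCD libraries and the other 2 below them. The log2 fold change was -0.39 (SE 0.20, 95% interval from -0.82 to 0.04, unadjusted p = 0.0709, BH-adjusted p = 0.979 by edgeR QL), and with 1 library omitted it lay between -0.58 without HFD replicate 2 (unadjusted p = 0.022, edgeR QL) and -0.28 without HFD replicate 3, its lowest library (unadjusted p = 0.19, edgeR QL). Of the 14 alternatives, the unadjusted p of Dhcr7 was under 0.05 in that first one and with limma after quantile normalization, at 0.0378.

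Msmo1, the methylsterol monooxygenase (chromosome 8, bases 64718139 to 64733792), had 122.1, 123.3 and 121.6 CPM on the NCD, a spread of 0.883 CPM (SD, n = 3), and 95.6, 108.6 and 120.4 CPM on the HFD, a spread of 12.4 CPM (SD, n = 3). All 3 HFD libraries were below the NCD libraries, HFD replicate 3 by little. Its log2 fold change was -0.18 (SE 0.11, BH-adjusted p = 0.979 by edgeR QL), and it ran from -0.26 without HFD replicate 3 (unadjusted p = 0.0146, edgeR QL) to -0.095 without HFD replicate 1 (unadjusted p = 0.444, edgeR QL).

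In the remaining steps of this stretch the libraries overlapped. Cyp51, the lanosterol demethylase, had a log2 fold change of -0.04, Nsdhl and Hsd17b7, which take part in the demethylation that follows, had -0.17 and -0.13, and Sc5d, the desaturase that makes 7-dehydrocholesterol, had -0.06. Nsdhl stood at -0.024 without HFD replicate 3, its lowest library, and Hsd17b7 at -0.048 without NCD replicate 3, its highest. Ebp, the sterol isomerase, stood at 0.04, with its highest level of 51.1 CPM in HFD replicate 3. Tm7sf2, a sterol reductase, was measured with 16 to 44 counts a library and had an interval from -0.85 to 0.69. It shares exonic bases with Vps51 on the same strand, near the 5′ end of the gene. Among its 9 transcripts searched, the last 500 bases matched Vps51 over up to 279 bases at 100% identity, so its counts are uncertain too. Cyp51 overlaps Akap9 on the other strand at its 3′ end.

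**Figure D3:**
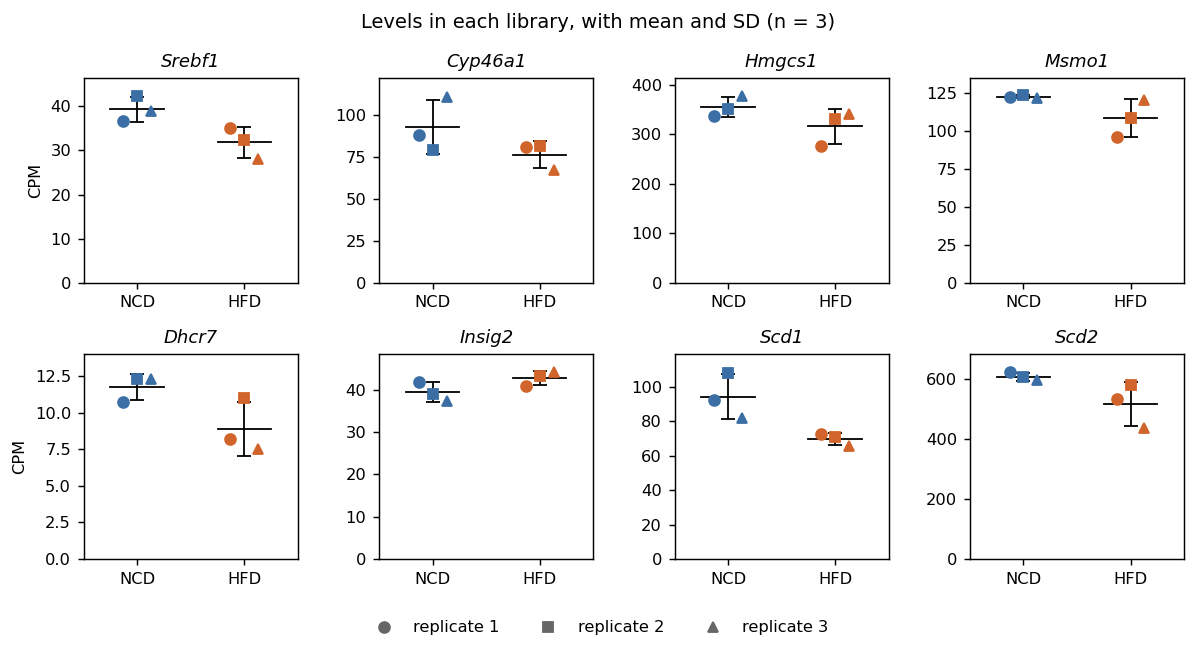
CPM of 6 of the genes and of the related genes Scd1 and Scd2 in each library, with the mean and the SD of 3 libraries a diet, on axes that start at 0. Srebf1, Msmo1, Scd1 and Scd2 had all HFD libraries below the NCD libraries, and the lowest library of Scd2 was HFD replicate 3 at 435 CPM.

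The libraries that set these values were not the same for all roles. Of the 18 synthesis enzymes, 8 had their lowest level in HFD replicate 1 and 6 in HFD replicate 3, while 8 had their highest in NCD replicate 3. Relative to each gene's own mean, the median enzyme was at 0.04, 0.08 and 0.10 on the log2 scale in NCD replicates 1, 2 and 3 and at -0.16, -0.03 and -0.03 in HFD replicates 1, 2 and 3. The enzymes were thus lowest in HFD replicate 1, the library with the smallest total count, and their median log2 fold change was -0.08 without it and -0.13 with it. Without HFD replicate 3, the library with pituitary transcripts, it was -0.13 as well, and without NCD replicate 3 it was -0.091. Of the other 12 genes, 7 had their lowest level in HFD replicate 3 and 1 in HFD replicate 1.

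**Figure D4:**
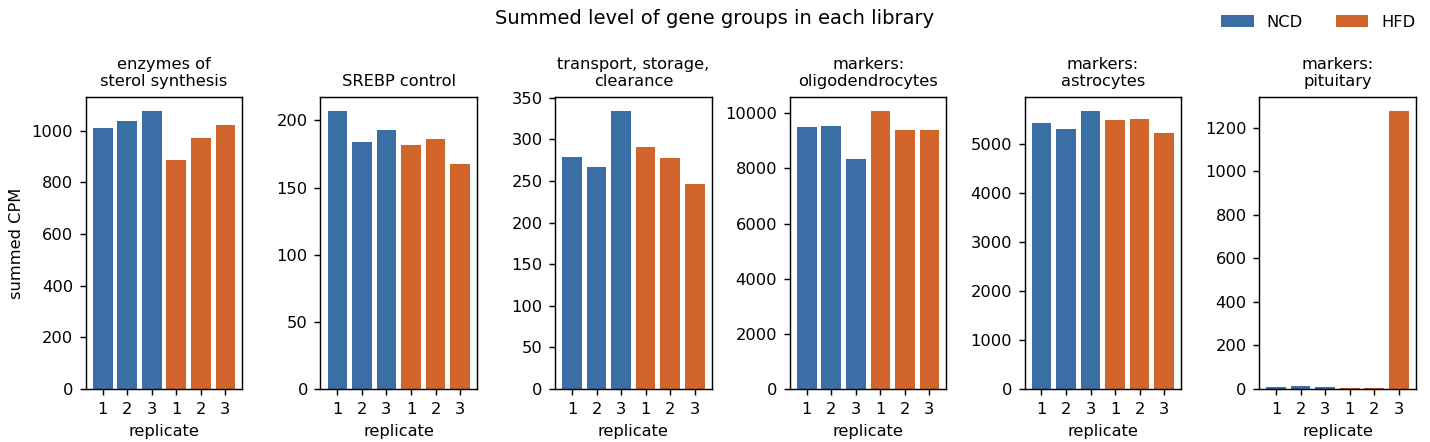
Summed CPM of 3 groups of the genes and of the markers of 3 cell types or tissues in each library (blue, NCD; orange, HFD), each panel on its own axis from 0. The enzymes were lowest in HFD replicate 1, at 886 CPM, and the pituitary markers were high in HFD replicate 3 alone, at 1277 CPM.

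Sterol synthesis genes are used by oligodendrocytes and astrocytes in particular, and in tissue RNA fewer cells of a type and less RNA per cell cannot be told apart. Of the 12 oligodendrocyte markers 11 had a log2 fold change over 0 (median 0.08), and their sum lay between 8325 and 9546 CPM on the NCD and between 9399 and 10079 CPM on the HFD. The lowest of these sums was in NCD replicate 3, the library in which 8 of the 18 enzymes were highest. Of the 11 astrocyte markers 5 were over 0 (median -0.01), with sums between 5321 and 5678 CPM on the NCD and between 5239 and 5526 CPM on the HFD. No marker of either list had an unadjusted p under 0.05 by edgeR QL, and the part of cell makeup in the sterol values was not tested.

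Among the control genes of the pathway, Srebf1 had the clearest difference. It encodes the SREBP-1 proteins, which mainly drive fatty acid synthesis, and its gene spans bases 60199089 to 60222581 of chromosome 11 (GRCm38). Its levels were 36.8, 42.3 and 38.9 CPM in NCD replicates 1, 2 and 3 and 35, 32.5 and 28 CPM in HFD replicates 1, 2 and 3. All HFD libraries were below the NCD libraries, HFD replicate 1 by little. The log2 fold change was -0.31 (SE 0.13, 95% interval from -0.58 to -0.03, unadjusted p = 0.0324, BH-adjusted p = 0.979 by edgeR QL). Without HFD replicate 3 it was -0.22 (unadjusted p = 0.0889, edgeR QL), without NCD replicate 2 it was -0.25 (unadjusted p = 0.124, edgeR QL) and without HFD replicate 2 it was -0.32 (unadjusted p = 0.0633, edgeR QL). The unadjusted p of Srebf1 was 0.0529 with DESeq2 and 0.0509 with limma after quantile normalization, and it was under 0.05 in 9 of the 14 alternatives. The 3′ end of Srebf1 overlaps that of Rai1 on the other strand, and Rai1 had a log2 fold change of -0.09.

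Srebf2, which encodes the factor that mainly drives cholesterol synthesis, had a log2 fold change of -0.13 with an interval from -0.51 to 0.26, and of 0.05 without HFD replicate 3, its lowest library. Scap, the escort of both factors, stood at -0.21 (SE 0.13, BH-adjusted p = 0.979 by edgeR QL), with levels between 53.1 and 78.5 CPM and overlapping diets. Its value was -0.34 without NCD replicate 2 (unadjusted p = 0.0282, edgeR QL) and -0.11 without HFD replicate 3, its lowest library (unadjusted p = 0.375, edgeR QL). The fold changes of the 2 Insig genes lay on opposite sides of 0, within intervals that both include it. Insig1, itself a target of SREBP and often read as a gauge of its activity, had 28.6, 26 and 22.8 CPM on the NCD and 21.6, 24 and 29.7 CPM on the HFD, so that HFD replicate 3 was the highest and HFD replicate 1 the lowest library. Its log2 fold change was -0.04 (95% interval from -0.36 to 0.29). Insig2, whose product has the same task, had 0.12 (95% interval from -0.13 to 0.37). The difference between the 2 genes was not tested.

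The liver X receptor genes Nr1h2 and Nr1h3 had log2 fold changes of 0.02 and 0.19. Nr1h2 was measured between 23.6 and 27 CPM in the 6 libraries. Nr1h3 had 1.36, 2.05 and 2 CPM on the NCD and 1.44, 2.62 and 2.06 CPM on the HFD, and its interval ran from -0.70 to 1.07.

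Cyp46a1, the neuronal cholesterol 24-hydroxylase, opens the main route by which the brain disposes of cholesterol. The gene spans bases 108334381 to 108362234 of chromosome 12 (GRCm38), and its promoter is the third of those printed. The gene had 88, 79.2 and 110.6 CPM in NCD replicates 1, 2 and 3 and 80.5, 81.4 and 66.8 CPM in HFD replicates 1, 2 and 3. NCD replicate 3 was high, HFD replicate 3 was low, and the other libraries lay close together. The log2 fold change was -0.28 (SE 0.13, unadjusted p = 0.0476, BH-adjusted p = 0.979 by edgeR QL). Without NCD replicate 3 it was -0.13 (unadjusted p = 0.31, edgeR QL), without HFD replicate 3 it was -0.19 (unadjusted p = 0.139, edgeR QL), and with the replicate number as a block it was -0.27 (unadjusted p = 0.0962, edgeR QL). The unadjusted p of Cyp46a1 was also over 0.05, between 0.0523 and 0.0614 by edgeR QL, when NCD replicate 1, HFD replicate 1 or HFD replicate 2 was omitted, and it was 0.0562 with DESeq2 and 0.119 with limma after quantile normalization. Of 10 neuron markers 4 had a log2 fold change over 0, with sums between 6677 and 6931 CPM on the NCD and between 6422 and 6793 CPM on the HFD.

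The libraries of the diets overlapped for the other handling genes. Npc1 and Npc2, which release cholesterol from lysosomes, had -0.04 and -0.03, Soat1, which esterifies it for storage, had -0.04, and Stard4, a soluble sterol carrier, had -0.12 with a wider interval, from -0.61 to 0.38. Npc1 ranged from 48.1 CPM in HFD replicate 3 to 80.5 CPM in HFD replicate 1, and its log2 fold change became 0.15 when HFD replicate 3 was omitted. Stard4 had its lowest and its highest level in the same libraries, at 6.6 and 12.4 CPM. Exons of Npc1 overlap those of Rmc1 and Gm15956 on the other strand, from 114 bases before its 3′ end, and the strand setting of the counting is not stated. Soat1 had the smallest ratio of highest to lowest library among the 30 genes, with levels between 19.2 and 21.4 CPM over the 6 libraries.

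Genes of the wider pathway were taken from lists of general knowledge. Of 13 other enzymes of sterol and isoprenoid synthesis, 12 were tested and 0 had an unadjusted p under 0.05 (median log2 fold change -0.07). Of these, 9 had a log2 fold change under 0 and 3 one over 0. The 14 genes of lipoprotein uptake and SREBP-2 targets were all tested, and their median log2 fold change was -0.08.

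Of the listed genes known to be driven by the liver X receptors (11 tested) and by SREBP-1 (10 tested), 3 had an unadjusted p under 0.05. All 3 were lower on the HFD. Over all genes tested 3.68% passed this threshold, 1.98% lower, and for lists this short the counts are a description only. Of the 11 listed targets of the receptors tested, 2 were lower at this threshold, namely Scd1 and Scd2, the stearoyl-CoA desaturases that make monounsaturated fatty acids. These 2 genes were placed in the receptor list only, so the count for the SREBP-1 list does not hold them. Scd1 had 92.6, 108 and 82 CPM in the NCD libraries and 72.6, 71 and 65.9 CPM in the HFD libraries, without overlap. The log2 fold change of Scd1 was -0.43 (SE 0.12, unadjusted p = 0.00205, BH-adjusted p = 0.979 by edgeR QL), and over 14 alternative settings its unadjusted p ran from 0.000536 to 0.0246.

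Scd2 had 621, 604 and 595 CPM on the NCD and 534, 579 and 435 CPM on the HFD, again without overlap. Its log2 fold change was -0.23 (SE 0.11, unadjusted p = 0.0461, BH-adjusted p = 0.979 by edgeR QL), and -0.12 (unadjusted p = 0.142, edgeR QL) without HFD replicate 3. Its unadjusted p was also over 0.05 by edgeR QL, between 0.0593 and 0.126, when any NCD replicate or HFD replicate 1 was omitted, and it was 0.116 with limma after quantile normalization. Of the receptor targets that carry cholesterol out of cells, Abca1 had a log2 fold change of -0.23 (SE 0.15), with a range from -0.38 without HFD replicate 2 to -0.15 without HFD replicate 3, and Apoe one of -0.04 (SE 0.09). Of 10 listed fatty acid synthesis targets of SREBP-1, 1 was lower at an unadjusted p under 0.05, namely Pnpla3, a lipid droplet protein, with 36 to 60 counts in the NCD libraries and 21 to 33 in the HFD libraries. The log2 fold change of Pnpla3 was -0.80 (SE 0.31, unadjusted p = 0.0191, BH-adjusted p = 0.979 by edgeR QL), and its unadjusted p by edgeR QL was 0.0758 when NCD replicate 1 and 0.0639 when NCD replicate 3 was omitted.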

How the data were processed

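QuantSeq 3′ libraries of 6 forebrain samples were trimmed for adaptors, aligned to mm10 with Bowtie2 and counted per gene with Bedtools by the authors, who included reads with several alignments. Versions, annotation and strand setting are not given in the sources used here. The deposited values are raw read counts, and the quantile normalization of the methods is a later step. Among the rows, 44 repeat the symbol of an earlier row and were kept apart, none of them a member.

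Groups came from the sample titles. The counts were fitted in R 4.3.3 with edgeR 4.0.16 (filterByExpr at min.count 10 and min.total.count 15, TMM, glmQLFit and glmQLFTest, Benjamini-Hochberg adjustment over 13771 genes). Standard errors are the log2 fold change over the square root of F. The members and lists were chosen with earlier results of these data known. Library values are given for members with an unadjusted p under 0.05, with diets that do not overlap or with the largest fold change of their role. Of the related lists, Abca1, Apoe and genes with an unadjusted p under 0.05 are named, apart from a few that are not reported here. Hmgcs1, Insig1, Mbtps1, Mbtps2, the other members given by single library levels and the genes plotted were chosen after their values were seen. Alternatives used DESeq2 1.42.0, limma 3.58.1 on log2(CPM + 1), other scalings and filters, the replicate number as a block, and the omission of 1 library at a time. Matches of the last 500 transcript bases were found with BLAST 2.17.0 in GENCODE vM21 transcripts, which also gave positions and overlaps. Figures were drawn with matplotlib 3.10.9.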

Additional observations from a re-analysis of the deposited data

How the results depend on the processing

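For same-numbered libraries of the diets the correlations of deviations over genes were -0.0295, 0.0515 and -0.0574. Libraries of unlike number had between -0.0631 and 0.0789. Such values over all genes cannot exclude that the numbers pair the samples or mark a shared batch, and the sources do not say. The row of Lrrc17, for example, had 18105, 16292 and 26659 CPM in NCD replicates 1, 2 and 3. In HFD replicates 1, 2 and 3 it had 20162, 18000 and 28460 CPM, in the same order. The row of Akap5 had nearly the same counts in each library, with 146871 against 146678 for Lrrc17 in NCD replicate 1. In HFD replicate 3 the counts were 205145 and 207008. Reads with several alignments were counted, so both rows are uncertain as levels of their genes. Whether they hold the same reads was not tested. With the replicate block, 1 of the 30 genes was lower at an unadjusted p under 0.05 in place of 2, and 0 had an adjusted p under 0.05. Over the table, 0 genes had an adjusted p under 0.05, and 23 had one without a count filter. The 23 include the pituitary markers Prl, Cga and Fshb, with 956, 198 and 35 counts in HFD replicate 3. Each other library had at most 5, 3 and 0 counts of these. Without the filter 408 genes were higher and 494 lower at an unadjusted p under 0.05, against 235 and 272. The count of lower members at that threshold was 0 with DESeq2, 1 with quantile normalization and limma, and 2 with each other scaling or filter. With upper-quartile scaling 1 member in place of 3 had all HFD libraries below the NCD libraries. No setting gave a member an adjusted p under 0.05.

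With each library left out in turn, between 0 and 3 genes of the table had an adjusted p under 0.05 (3 without NCD replicate 3), between 182 and 366 were higher at an unadjusted p under 0.05 (366 without HFD replicate 1), and 1 to 3 members were lower. Members with all HFD libraries below the NCD libraries numbered 4 to 8 and those above 0 to 2, since fewer libraries have to separate. The members' median log2 fold change was lowest, at -0.14, when HFD replicate 2 was omitted and highest, at -0.052, when NCD replicate 3 was, and that of the synthesis enzymes was -0.17 when HFD replicate 2 and -0.079 when HFD replicate 1 was omitted. Of the 30 genes, 19 kept the sign of their fold change in all 14 alternatives. The other 11 changed sign only where a library was left out, with log2 fold changes from -0.14 to 0.23 for Idi1, -0.36 to 0.20 for Tm7sf2, -0.13 to 0.15 for Ebp, -0.105 to 0.034 for Sc5d, -0.26 to 0.045 for Srebf2, -0.17 to 0.057 for Insig1, -0.013 to 0.086 for Nr1h2, -0.047 to 0.38 for Nr1h3, -0.33 to 0.086 for Stard4, -0.19 to 0.15 for Npc1 and -0.085 to 0.068 for Npc2. Of the genes that kept their sign, the range with a library left out was -0.29 to -0.15 for Lss, -0.20 to -0.12 for Fdft1, -0.17 to -0.044 for Sqle, -0.12 to -0.0029 for Cyp51, -0.084 to -0.0042 for Soat1, 0.035 to 0.108 for Acat2 and 0.08 to 0.16 for Insig2. For Pmvk this range was -0.21 to -0.021, for Mvd -0.21 to -0.057, for Nsdhl -0.28 to -0.024 and for Hsd17b7 -0.20 to -0.048. The cause of these moves was not tested. Nr1h3 and Tm7sf2 had the fewest counts of the 30 genes and the widest intervals.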

Other observations

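Gene groups around the sterol pathway that enter no comparison above stood as follows. Of 14 genes of SREBP processing and Insig turnover, all tested, 8 had a log2 fold change over 0 (median 0.03). The protease genes that cut SREBP had log2 fold changes of -0.13 for Mbtps1 and 0.41 for Mbtps2 (SE 0.20, unadjusted p = 0.0586, BH-adjusted p = 0.979 by edgeR QL). In this list 1 gene had an unadjusted p under 0.05, the ubiquitin ligase gene Trim21, with 9, 21 and 29 counts in the NCD libraries, against 3, 3 and 13 in the HFD libraries, and a log2 fold change of -1.37 (SE 0.60, unadjusted p = 0.0359, BH-adjusted p = 0.979 by edgeR QL). Without HFD replicate 2 the value of Trim21 was -0.94 (unadjusted p = 0.169, edgeR QL), and its unadjusted p by edgeR QL was 0.159 when NCD replicate 3 was omitted. Of 16 genes of sterol transfer and storage 15 were tested (median 0.04), and of 8 oxysterol and bile acid route genes 7 were tested (median -0.18), with 0 at an unadjusted p under 0.05 in either list.

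Markers of other cell types were also measured. The median log2 fold change was 0.11 for 10 microglia and macrophage markers, 0.14 for 9 markers of endothelium and pericytes and 0.01 for 9 of choroid plexus and ependyma. At an unadjusted p under 0.05 by edgeR QL, 0, 1 and 1 of these markers were higher and 0 lower. The 5 erythrocyte markers had a median of 0.56, with sums between 421 and 519 CPM on the NCD and between 544 and 824 CPM on the HFD. At the same threshold 4 of the 5 were higher. Over all genes tested, 1.71% were higher and 1.98% lower. Of 9 liver markers 5 were tested, all 5 lower at an unadjusted p under 0.05. Of these, Fgb and Ahsg passed the count filter through the NCD libraries, with 14 to 35 and 15 to 62 counts there. On the HFD they had 2 to 11 and 0 to 11 counts, so the filter partly fixed this result. Without the filter, the unadjusted p by edgeR QL was 0.529 for Serpina1a, 0.417 for Apoh, 0.19 for Fga and 0.000634 for Serpina1b. The liver sums lay between 12.2 and 56.8 CPM on the NCD and between 7.01 and 13.1 CPM on the HFD. Serpina1b, Fga and Ahsg were at 0 in at least 1 library. The part of all these markers in the sterol values was not tested.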
